A study of Mus musculus with 12 samples.

Results

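The small leucine-rich proteoglycans are secreted proteins of the extracellular matrix, and 10 of their genes were followed across 4 fibroblast populations sorted from neonatal mouse dermis. The genes were Dcn, Bgn, Lum, Fmod, Ogn, Aspn, Omd, Prelp, Podn and Kera, chosen as members of the family with no cut-off on their values, though with earlier results of these data known, out of 22180 genes on the arrays. Each gene was read from the probe set that carried its symbol alone, and where a gene had 2 such probe sets (Bgn, Fmod and Prelp) from the one with the higher mean over the 12 arrays.

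Total RNA was taken from the back skin dermis of wild-type mice at postnatal day 2 and measured on Affymetrix Mouse Gene 2.0 ST arrays, with 3 arrays labelled as biological replicates per population. The study describes the cells as GFP+ cells of a reporter strain in which a nuclear green fluorescent protein marks expression of Pdgfra, a receptor of fibroblasts, and says that replicates came from different mice. It takes CD26+ cells, gated as Sca1-, for papillary fibroblasts of the upper dermis and Dlk1+Sca1- cells for reticular fibroblasts of the lower dermis. Both Sca1+ populations, Dlk1+Sca1+ and Dlk1-Sca1+, are taken for pre-adipocytes. A population was thus defined by what an antibody gate let through, and it may hold cells of more than 1 kind.

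Proteins of this family carry a run of leucine-rich repeats that binds collagen fibrils, and they regulate how thick the fibrils grow and how they are spaced. Most members bear chains of chondroitin, dermatan or keratan sulfate, and several, decorin and biglycan among them, also bind TGF-beta or signal through cell surface receptors once they are released from the matrix. Mice without decorin or lumican have fragile skin with irregular collagen fibrils. The family is divided into classes, with Dcn, Bgn and Aspn in class I, Lum, Fmod, Prelp, Kera and Omd in class II, Ogn in class III and Podn in class V.

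Values below are log2 expression levels as deposited, a log2 difference is the first population named minus the second with the standard error (SE) of the fit, and "called" means an adjusted p under 0.05 over all genes. Array medians lay between 5.38 and 5.51, no pair of arrays was identical, and Pdgfra was measured in every population (8.64 to 9.50 over the 12 arrays). The genes of the sorting markers CD26 and Dlk1 were read as a check of the labels, and no level of the Sca1 gene is given here. Dpp4, which encodes CD26, had a mean of 10.30 ± 0.27 (SD, n = 3) in CD26+ and 8.47 ± 0.66 to 10.05 ± 0.11 in the other populations. Dlk1 lay between 9.78 and 10.23 in both Dlk1+ populations and between 8.49 and 8.69 in CD26+, while the Dlk1-Sca1+ arrays had 8.09, 8.32 and 8.69. The Dlk1-Sca1+ array with 8.69, replicate 3, met the rule set up to find the sample that the study had excluded, and it was left out of the fit, which leaves Dlk1-Sca1+ with 2 arrays. It is shown with the others below, and results that depend on it are given with and without it.

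The family did not move as 1 block. Aspn, Ogn, Bgn and Prelp were lower in CD26+ than in Dlk1+Sca1+ cells, Aspn and Kera were lower in CD26+ than in Dlk1+Sca1- cells, Dlk1-Sca1+ cells had less Kera than Dlk1+Sca1- cells and less Aspn and Ogn than Dlk1+Sca1+ cells. These 9 calls were all that limma made among 60 tests of members, and they fell on 5 of the 10 genes. Of all genes, 0.0857% to 3.72% were called per comparison, as given for each below. In a test of any difference among the 4 populations (moderated F), Aspn (adjusted p = 0.00229), Kera (0.0106) and Ogn (0.0395) were called, where 3.23% of all genes were. Aspn was also called in the 11 fits that left out 1 array each and in 8 of 8 other settings, Kera in 10 of 11 and 8 of 8, and Ogn in 3 of 11 and 6 of 8. The Kera call was lost without Dlk1+Sca1- replicate 1 (adjusted p = 0.0513). The Ogn call stood only without CD26+ replicate 3 or without Dlk1+Sca1- replicate 2 or 3, and without Dlk1+Sca1+ replicate 1 its adjusted p was 0.152. Prelp (0.0666), Bgn (0.0681), Lum (0.0766), Fmod (0.106), Dcn (0.382), Podn (0.569) and Omd (0.948) were not called. Lum had its higher mean levels in the 2 populations where Aspn and Ogn had their lower ones.

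**Figure D1:**
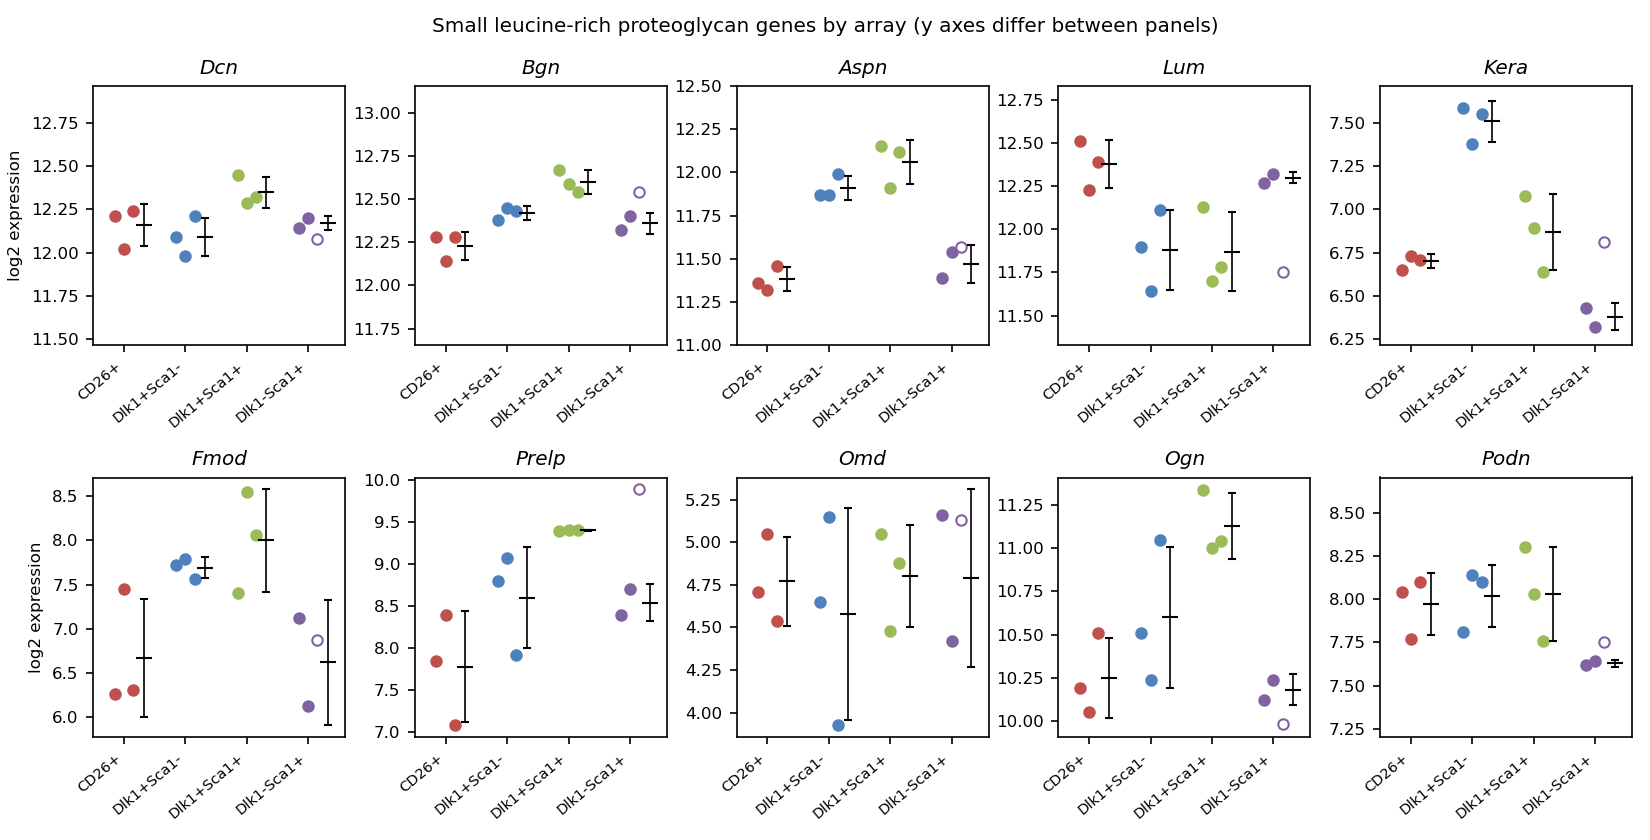
Log2 expression level (y axis, scaled per panel) of the 10 genes in the 4 sorted populations (x axis), with 1 point per array and, beside the points, the mean with a bar of 1 SD over the arrays fitted. The open point is the Dlk1-Sca1+ array left out of the fit. Aspn and Ogn sit lower in CD26+ and Dlk1-Sca1+, Kera is highest in the 3 Dlk1+Sca1- arrays (7.38 to 7.59), and Lum is highest in the 3 CD26+ arrays and the 2 fitted Dlk1-Sca1+ arrays (12.23 to 12.51).

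Aspn encodes asporin, a class I protein with a stretch of aspartate residues that binds collagen and TGF-beta. The CD26+ arrays had Aspn levels of 11.36, 11.32 and 11.46, the Dlk1-Sca1+ arrays 11.39, 11.54 and, in the array left out, 11.57. In Dlk1+Sca1- cells the levels were 11.87, 11.87 and 11.99, and in Dlk1+Sca1+ cells 12.15, 11.91 and 12.12. Both Dlk1+ populations therefore lay above both others on every array, the left-out array included. The Aspn difference was -0.68 ± 0.09 (SE) for CD26+ against Dlk1+Sca1+ (adjusted p = 0.00103, limma), a 1.60-fold lower level in CD26+. It was -0.53 ± 0.09 for CD26+ against Dlk1+Sca1- (0.0156) and -0.59 ± 0.10 for Dlk1-Sca1+ against Dlk1+Sca1+ (0.016). For Dlk1-Sca1+ against Dlk1+Sca1- it was -0.44 ± 0.10 and was not called (0.0891). The neighbouring populations in this order did not differ past the threshold, with -0.09 ± 0.10 between CD26+ and Dlk1-Sca1+ (95% interval -0.31 to 0.14) and 0.15 ± 0.09 between the 2 Dlk1+ populations (-0.05 to 0.35). The call against Dlk1+Sca1+ stood in the 11 fits that left out an array. The call of CD26+ against Dlk1+Sca1- was lost without CD26+ replicate 1 or 2, and that of Dlk1-Sca1+ against Dlk1+Sca1+ without replicate 1 or 2 of Dlk1-Sca1+ or replicate 1 or 3 of Dlk1+Sca1+.

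Ogn encodes osteoglycin, also called mimecan, a class III protein that affects collagen fibril diameter. Ogn levels were 10.19, 10.05 and 10.51 in CD26+ and 10.12, 10.24 and 9.98 in Dlk1-Sca1+, the last being the array left out. They were 10.51, 10.24 and 11.05 in Dlk1+Sca1- and 11.34, 10.997 and 11.04 in Dlk1+Sca1+. Dlk1+Sca1+ lay above CD26+ and Dlk1-Sca1+ with no overlap, while the Dlk1+Sca1- arrays were spread from the level of CD26+ to that of Dlk1+Sca1+. The Ogn difference was -0.88 ± 0.19 for CD26+ against Dlk1+Sca1+ (adjusted p = 0.0183, limma), a 1.84-fold lower level. It was -0.94 ± 0.21 for Dlk1-Sca1+ against Dlk1+Sca1+ (0.0475), and -1.01 with all 12 arrays (0.0296). The latter call stood in 2 of 11 fits that left out an array, those without Dlk1+Sca1- replicate 2 or 3, whereas the former was lost without CD26+ replicate 1 or 2 or Dlk1+Sca1+ replicate 1. Against Dlk1+Sca1-, Ogn differed by 0.52 ± 0.19 in Dlk1+Sca1+ (0.258) and by -0.35 ± 0.19 in CD26+ (0.467), neither of them called.

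Aspn and Ogn lie beside each other on chromosome 13, with Omd between them and Ecm2 before them. On GRCm38, Ecm2 spans chr13:49504810-49532789, Aspn chr13:49544443-49567565, Omd chr13:49582462-49592612 and Ogn chr13:49608015-49624501. Omd encodes osteomodulin, a class II keratan sulfate proteoglycan known from mineralized tissue. Its levels ran from 4.42 to 5.16 over the arrays of CD26+, Dlk1+Sca1+ and Dlk1-Sca1+ and were 4.65, 5.15 and 3.93 in Dlk1+Sca1-, and the 4 populations overlapped. The 6 Omd differences lay between -0.04 and 0.23 with SEs of 0.29 to 0.33, each within its own SE. Omd was the only member removed by a filter on the dimmest 40% of genes. Over the 12 arrays Pearson's r between Aspn and Ogn was 0.85, and after the population means were removed it was 0.58, against -0.18 and -0.21 between Aspn and Omd. These values describe 12 arrays that share populations, and were not tested.

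Because Aspn and Ogn both had their 2 higher means in the Dlk1+ populations and the populations overlapped in Omd, placed between them, the sequences around the start sites of these 3 neighbours are shown. Each RefSeq window (GRCm38.p6, plus strand, the strand of the genes) runs from 250 bases before the annotated start through the 50 bases from it, written 5′ to 3′. The windows are chr13:49544193-49544492 for Aspn, chr13:49582212-49582511 for Omd and chr13:49607765-49608064 for Ogn, and capitals mark matches on either strand to the TATA box (TATAAA), the GC box (GGGCGG), the CCAAT box (CCAAT) or the AP-1 site (TGANTCA, where N is any base).
Aspn: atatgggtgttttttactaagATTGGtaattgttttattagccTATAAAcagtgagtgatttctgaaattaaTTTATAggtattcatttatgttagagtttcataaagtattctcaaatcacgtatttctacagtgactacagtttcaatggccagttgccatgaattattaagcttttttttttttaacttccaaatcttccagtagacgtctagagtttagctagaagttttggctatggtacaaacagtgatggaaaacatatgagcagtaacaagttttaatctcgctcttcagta
Omd: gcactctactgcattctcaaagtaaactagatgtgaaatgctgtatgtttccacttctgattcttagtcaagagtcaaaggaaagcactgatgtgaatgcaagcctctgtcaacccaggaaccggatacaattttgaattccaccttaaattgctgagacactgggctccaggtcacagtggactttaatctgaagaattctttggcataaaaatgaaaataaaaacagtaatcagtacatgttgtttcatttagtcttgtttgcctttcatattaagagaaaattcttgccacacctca
Ogn: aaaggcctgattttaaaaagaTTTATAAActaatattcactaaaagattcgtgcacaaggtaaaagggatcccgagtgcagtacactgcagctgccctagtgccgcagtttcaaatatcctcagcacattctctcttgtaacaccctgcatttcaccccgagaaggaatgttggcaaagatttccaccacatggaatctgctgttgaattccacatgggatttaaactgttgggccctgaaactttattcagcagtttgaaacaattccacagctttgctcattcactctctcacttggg

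Counted from the start site, the Aspn window held TATAAA at -207 to -202 and, on the opposite strand, at -178 to -173, with CCAAT on the opposite strand at -229 to -225. The Ogn window held TATAAA at -227 to -222, which overlapped a copy on the opposite strand at -229 to -224. The Omd window held none of the 4 motifs. Of 32851 mouse windows of this length, 13.6% held TATAAA, 37.4% CCAAT, 35.7% GGGCGG and 7.81% TGANTCA, and no member's window held TGANTCA. A match is a description of letters and not of a bound site. Windows were matched for 8 members, and for Dcn and Lum none is shown.

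Ecm2, the fourth gene of this cluster, encodes a related leucine-rich matrix protein and is not one of the 10 members. Its levels were 6.12, 6.62 and 6.40 in CD26+, 7.55, 7.87 and 7.09 in Dlk1+Sca1-, 8.13, 8.23 and 8.21 in Dlk1+Sca1+, and 7.21, 7.52 and, in the array left out, 7.73 in Dlk1-Sca1+. CD26+ lay below the other populations without overlap. The Ecm2 difference was -1.81 ± 0.21 for CD26+ against Dlk1+Sca1+ (adjusted p = 0.000229, limma), which stood in 11 of 11 fits without 1 array. It was -1.12 ± 0.21 against Dlk1+Sca1- (0.0186), which stood in 7 of 11. Over the 12 arrays r of Ecm2 was 0.86 with Prelp, 0.49 with Ogn and 0.77 with its neighbour Aspn. After the population means were removed, these were 0.75, -0.70 and -0.07.

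Bgn, on the X chromosome, encodes biglycan, a class I proteoglycan that binds collagen and, once soluble, the Toll-like receptors TLR2 and TLR4. Bgn levels were 12.28, 12.14 and 12.28 in CD26+, 12.38, 12.45 and 12.43 in Dlk1+Sca1-, 12.67, 12.59 and 12.54 in Dlk1+Sca1+ and 12.32, 12.40 and, in the array left out, 12.54 in Dlk1-Sca1+. By their means the populations stood in the order CD26+, Dlk1-Sca1+, Dlk1+Sca1-, Dlk1+Sca1+, with overlap only between Dlk1-Sca1+ and Dlk1+Sca1- among the fitted arrays. Only the ends of this order were called apart, at -0.37 ± 0.08 for CD26+ against Dlk1+Sca1+ (adjusted p = 0.0151, limma), a 1.29-fold lower level. That call was lost without CD26+ replicate 2 or Dlk1+Sca1+ replicate 1. The other Bgn probe set gave a larger difference in the same comparison, -0.71 ± 0.17 (0.0346), with levels of 11.45, 11.29 and 11.40 in CD26+ and 12.06, 12.11 and 12.09 in Dlk1+Sca1+. On this probe set 1 Dlk1+Sca1- array (10.89) lay below all CD26+ arrays while the other two had 11.70 and 11.67, so the 2 probe sets placed that array differently.

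Dcn encodes decorin, the class I proteoglycan that binds along type I collagen fibrils in the dermis. Its levels were 12.21, 12.02 and 12.24 in CD26+, 12.09, 11.98 and 12.21 in Dlk1+Sca1-, 12.45, 12.29 and 12.32 in Dlk1+Sca1+ and 12.14, 12.20 and 12.08 in Dlk1-Sca1+. The 3 Dlk1+Sca1+ arrays were above the 9 others, and the other populations overlapped. The largest Dcn difference, 0.26 ± 0.09 for Dlk1+Sca1+ against Dlk1+Sca1- (95% interval 0.06 to 0.45), was not called (adjusted p = 0.253, limma), nor was -0.19 ± 0.09 for CD26+ against Dlk1+Sca1+ (0.348).

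Lum encodes lumican, a class II keratan sulfate proteoglycan that lies next to Dcn on chromosome 10 (chr10:97479500-97518163 for Dcn, chr10:97565501-97572703 for Lum). Lum levels were 12.51, 12.23 and 12.39 in CD26+, 11.90, 11.64 and 12.11 in Dlk1+Sca1- and 12.13, 11.70 and 11.78 in Dlk1+Sca1+. In Dlk1-Sca1+ they were 12.27 and 12.32, and 11.75 in the array left out, which thus had the Lum level of the Dlk1+ populations. CD26+ and the fitted Dlk1-Sca1+ arrays lay above both Dlk1+ populations without overlap, yet no comparison was called. The difference was 0.51 ± 0.13 for CD26+ against Dlk1+Sca1+ (adjusted p = 0.0526, limma, and 0.127 with all 12 arrays) and 0.50 ± 0.13 against Dlk1+Sca1- (0.111). For Dlk1-Sca1+ it was 0.43 ± 0.15 against Dlk1+Sca1+ (0.256) and 0.41 ± 0.15 against Dlk1+Sca1- (0.27).

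Kera encodes keratocan, a class II keratan sulfate proteoglycan best known from the cornea, and follows Lum on chromosome 10 (chr10:97606962-97613688). The Kera levels were 7.59, 7.38 and 7.55 in Dlk1+Sca1-, 7.08, 6.89 and 6.64 in Dlk1+Sca1+, 6.65, 6.73 and 6.71 in CD26+ and 6.43, 6.32 and, in the array left out, 6.81 in Dlk1-Sca1+. The 3 Dlk1+Sca1- arrays were above the 9 others. The Kera difference was -1.13 ± 0.18 for Dlk1-Sca1+ against Dlk1+Sca1- (adjusted p = 0.015, limma), a 2.19-fold lower level, and -0.99 with all 12 arrays (0.0218). It was -0.81 ± 0.16 for CD26+ against Dlk1+Sca1- (0.0298), which was not called with all 12 arrays (0.057). The former call was lost without Dlk1-Sca1+ replicate 1 or 2 or Dlk1+Sca1- replicate 1, and the latter without any 1 of the 6 arrays compared. For Dlk1+Sca1+ against Dlk1+Sca1- the difference of -0.64 ± 0.16 was not called (0.0867). The other populations were not called apart, with -0.49 ± 0.18 for Dlk1-Sca1+ against Dlk1+Sca1+ (0.289) and 0.32 ± 0.18 for CD26+ against Dlk1-Sca1+ (0.955).

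The Kera window is shown because Kera alone among the members was highest in Dlk1+Sca1- cells on all arrays. It spans chr10:97606955-97607254 (RefSeq, GRCm38.p6, plus strand), with the same length and motifs as above. The start site it is built on lies inside the gene span given above, and positions are counted from that site. It held CCAAT 3 times, at -74 to -70 and, on the opposite strand, at -107 to -103 and -163 to -159.
Kera: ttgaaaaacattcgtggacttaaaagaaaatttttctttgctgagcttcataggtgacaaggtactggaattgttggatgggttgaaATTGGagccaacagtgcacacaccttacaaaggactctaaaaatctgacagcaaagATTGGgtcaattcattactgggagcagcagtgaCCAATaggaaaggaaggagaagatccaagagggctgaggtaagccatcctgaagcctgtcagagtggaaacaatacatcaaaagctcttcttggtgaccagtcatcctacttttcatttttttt

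Epyc, which follows Kera on chromosome 10 and encodes the cartilage proteoglycan epiphycan, had levels between 3.17 and 4.01 over the 12 arrays and was called in no comparison. Over the 12 arrays r was 0.18 between Dcn and Lum and -0.45 between Lum and Kera, and with the population means removed it was 0.84 and -0.16. Without the left-out array the latter was 0.55.

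Prelp and Fmod lie near each other on chromosome 1 (chr1:133910304-133930102 and chr1:134037254-134048280). Prelp encodes a class II protein with a basic amino terminus that binds heparan sulfate, found near basement membranes. Prelp levels were 7.85, 8.40 and 7.09 in CD26+, 8.80, 9.07 and 7.92 in Dlk1+Sca1- and 9.39, 9.41 and 9.41 in Dlk1+Sca1+. In Dlk1-Sca1+ they were 8.39 and 8.70, and 9.89 in the array left out, the highest of the 12. The 3 Dlk1+Sca1+ arrays agreed within 0.02 and were above the 8 other fitted arrays, while CD26+ and Dlk1+Sca1- were each spread over more than 1 log2 unit. The Prelp difference was -1.62 ± 0.32 for CD26+ against Dlk1+Sca1+ (adjusted p = 0.014, limma), a 3.08-fold lower level and the largest of the 9 called differences of members. It was not called with all 12 arrays (0.0556), without CD26+ replicate 1 or Dlk1+Sca1+ replicate 3, or on the other probe set (-1.09 ± 0.31, 0.079). With all 12 arrays the difference between Dlk1-Sca1+ and Dlk1+Sca1+ went from -0.86 (0.392) to -0.41 (0.84).

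Fmod encodes fibromodulin, a class II proteoglycan that binds collagen and TGF-beta and is abundant in tendon. Fmod levels were 6.26, 7.45 and 6.30 in CD26+ and 7.12, 6.12 and, in the array left out, 6.87 in Dlk1-Sca1+. They were 7.72, 7.79 and 7.56 in Dlk1+Sca1- and 7.40, 8.55 and 8.06 in Dlk1+Sca1+. Both Dlk1+ populations lay above Dlk1-Sca1+, and CD26+ overlapped Dlk1+Sca1+ through its replicate 2. None of the 6 comparisons was called on this probe set, although the differences were large, at -1.33 ± 0.36 for CD26+ (adjusted p = 0.0675, limma) and -1.38 ± 0.40 for Dlk1-Sca1+ (0.166), both against Dlk1+Sca1+. The other Fmod probe set had less spread, with 6.49, 6.91 and 5.80 in CD26+, 6.56, 6.36 and, in the array left out, 6.65 in Dlk1-Sca1+, and 7.65, 8.11 and 7.93 in Dlk1+Sca1+. On it both comparisons were called, at -1.49 ± 0.24 (0.00292) and -1.44 ± 0.27 (0.021). This second reading was chosen after the values had been seen, and the annotation used gives neither the position nor the strand of either probe set.

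**Figure D2:**
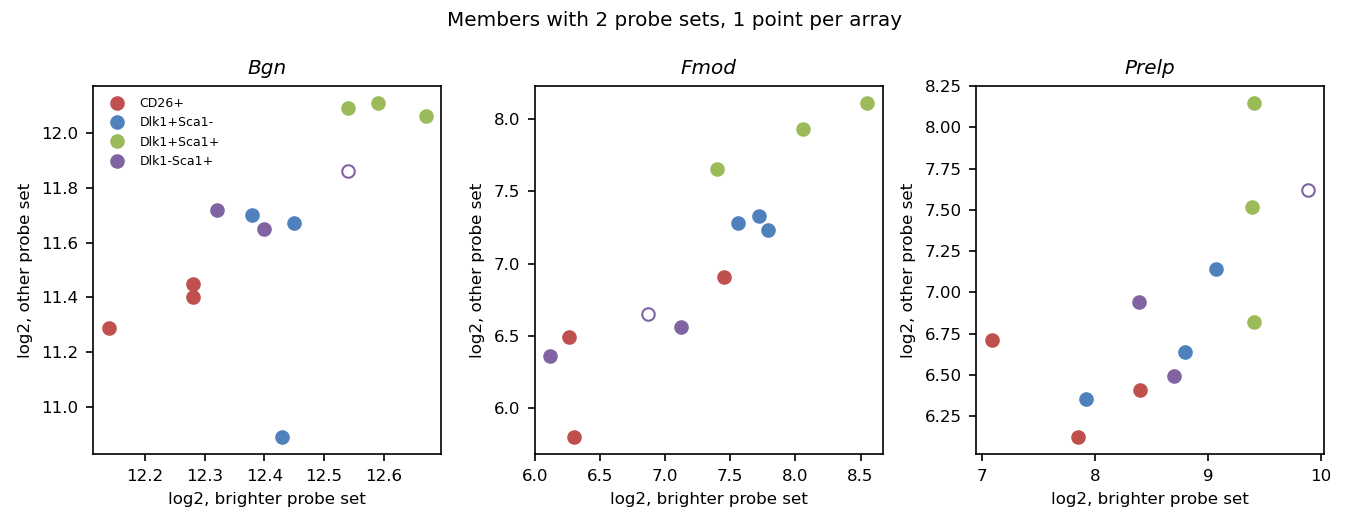
Log2 level on the brighter probe set (x axis) against the other probe set (y axis) of Bgn, Fmod and Prelp, with 1 point per array coloured by population and the left-out Dlk1-Sca1+ array open. In Bgn 1 Dlk1+Sca1- array falls to 10.89 on the other probe set, and in Fmod the 3 Dlk1+Sca1+ arrays lie above all others on the other probe set (7.65 to 8.11).

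Podn, on chromosome 4, encodes podocan, a class V member known from kidney and the arterial wall. Podn levels were 8.04, 7.77 and 8.10 in CD26+, 7.81, 8.14 and 8.10 in Dlk1+Sca1-, 8.30, 8.03 and 7.76 in Dlk1+Sca1+ and 7.62, 7.64 and, in the array left out, 7.75 in Dlk1-Sca1+. Dlk1-Sca1+ lay below the other populations without overlap and the others overlapped. The Podn differences of Dlk1-Sca1+ were -0.40 ± 0.19 against Dlk1+Sca1+ (adjusted p = 0.477, limma) and -0.39 ± 0.19 against Dlk1+Sca1- (0.438), neither called.

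Counted over the family, 4 of 10 members were called lower in CD26+ than in Dlk1+Sca1+, a comparison that called 3.72% of all genes and 1.68% of them lower. For CD26+ against Dlk1+Sca1- it was 2 of 10 lower (1.10% of all genes called, 0.442% lower), for Dlk1-Sca1+ against Dlk1+Sca1+ 2 of 10 lower (1.19%, 0.537%) and for Dlk1-Sca1+ against Dlk1+Sca1- 1 of 10 lower (0.591%, 0.248%). No member was called between the 2 Dlk1+ populations (1.24% of all genes) or between CD26+ and Dlk1-Sca1+ (0.0857%). At an unadjusted p of 0.05, limma counted 5 members and 2565 genes in the former and 0 members and 1224 genes in the latter, and the methods' t-test 3 and 1 members. The median member difference was -0.45 for Dlk1-Sca1+ against Dlk1+Sca1+, -0.28 for CD26+ against Dlk1+Sca1+, -0.27 for CD26+ and -0.22 for Dlk1-Sca1+ against Dlk1+Sca1-, 0.20 between the Dlk1+ populations and 0.02 between CD26+ and Dlk1-Sca1+, while the median of all genes lay between -0.01 and 0.01 throughout. The comparisons share arrays, so these medians are not independent of each other.

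**Figure D3:**
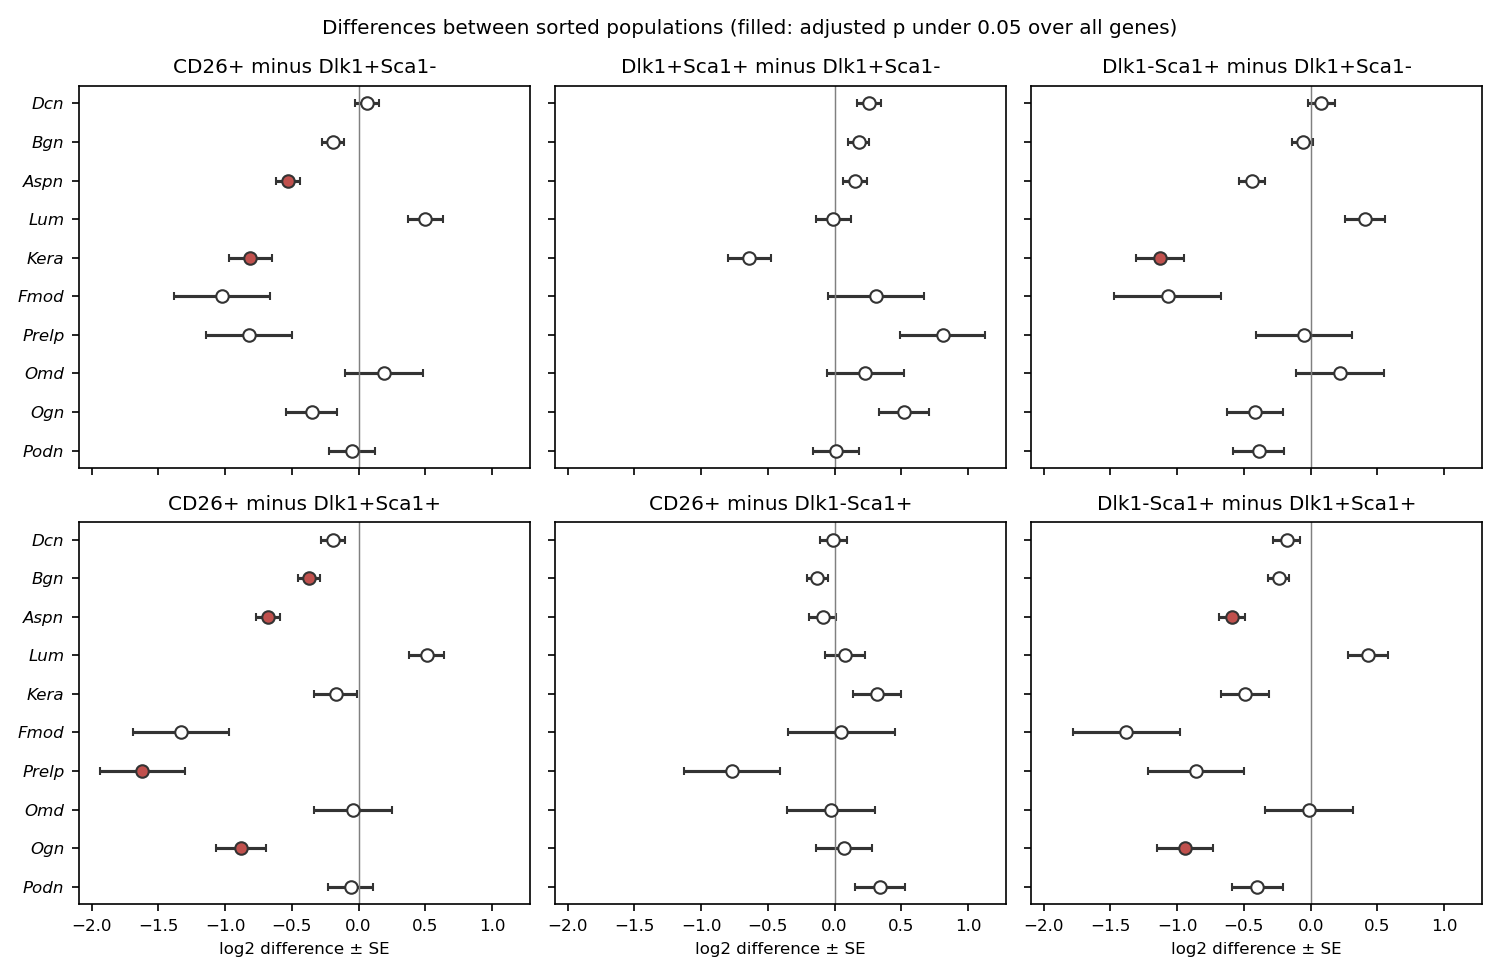
Log2 difference with its SE (x axis) for the 10 genes (y axis) in the 6 comparisons, the population named first minus the second, over 11 arrays. Filled points mark the 9 differences called at an adjusted p under 0.05. In the 4 comparisons of CD26+ or Dlk1-Sca1+ with a Dlk1+ population Lum lies to the right of 0 and Aspn, Fmod, Ogn and Kera to the left, and between CD26+ and Dlk1-Sca1+ no point is filled.

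Without any threshold on p, 8 members were lower in both Dlk1-Sca1+ arrays than in all 3 arrays of Dlk1+Sca1+, and 1 member, Lum, was higher without overlap. Of all genes 13.4% were lower and 13.1% higher in this way. With the left-out array included, 5 members were lower and none was higher, against 6.69% and 7.17% of all genes. For CD26+ against Dlk1+Sca1+, 5 members (9.88% of all genes) were lower without overlap and 1 (10.9%) was higher.

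Members also varied together between arrays of the same population, and for some pairs r then differed in sign from that with the population means kept. After the mean of each population was removed from the 12 arrays, Dcn, Lum and Ogn went together, with r = 0.91 between Dcn and Ogn, 0.84 between Dcn and Lum and 0.74 between Lum and Ogn. Before the means were removed r was -0.23 between Lum and Ogn, 0.18 between Dcn and Lum and 0.80 between Dcn and Ogn. Fmod and Prelp ran against these 3 genes, with r of -0.80 and -0.75 to Dcn and -0.57 and -0.77 to Ogn, although Fmod and Ogn both had their highest population mean in Dlk1+Sca1+ (r = 0.51 with the means kept). In each of CD26+, Dlk1+Sca1- and Dlk1+Sca1+, replicate 2 had the lowest Dcn, Lum and Ogn of its population and the highest Fmod and Prelp. In Dlk1-Sca1+ replicate 2 instead had the highest Dcn, Lum and Ogn and the lowest Fmod. For Prelp in Dlk1+Sca1+ the margin was small, with 9.411 against 9.406 in replicate 3. On the other probe sets the pattern held only in part. There replicate 2 was lowest for Fmod in Dlk1+Sca1- (7.23) and for Prelp in Dlk1+Sca1+ (6.82), and replicate 3 was highest for Prelp in CD26+ (6.71). Replicate 2 was again highest for Fmod in CD26+ and Dlk1+Sca1+ and for Prelp in Dlk1+Sca1-. On the probe sets used, replicate 2 thus stood out alike in CD26+, Dlk1+Sca1- and Dlk1+Sca1+, but not in Dlk1-Sca1+. Whether the replicate number stands for a shared batch is not given by the labels and was not tested. Over the 11 fitted arrays, with the population means removed, r was 0.90 for Dcn and Ogn, 0.90 for Dcn and Lum and 0.81 for Lum and Ogn. It was -0.80 and -0.77 for Dcn with Fmod and Prelp. These correlations share populations, and p-values were not computed.

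**Figure D4:**
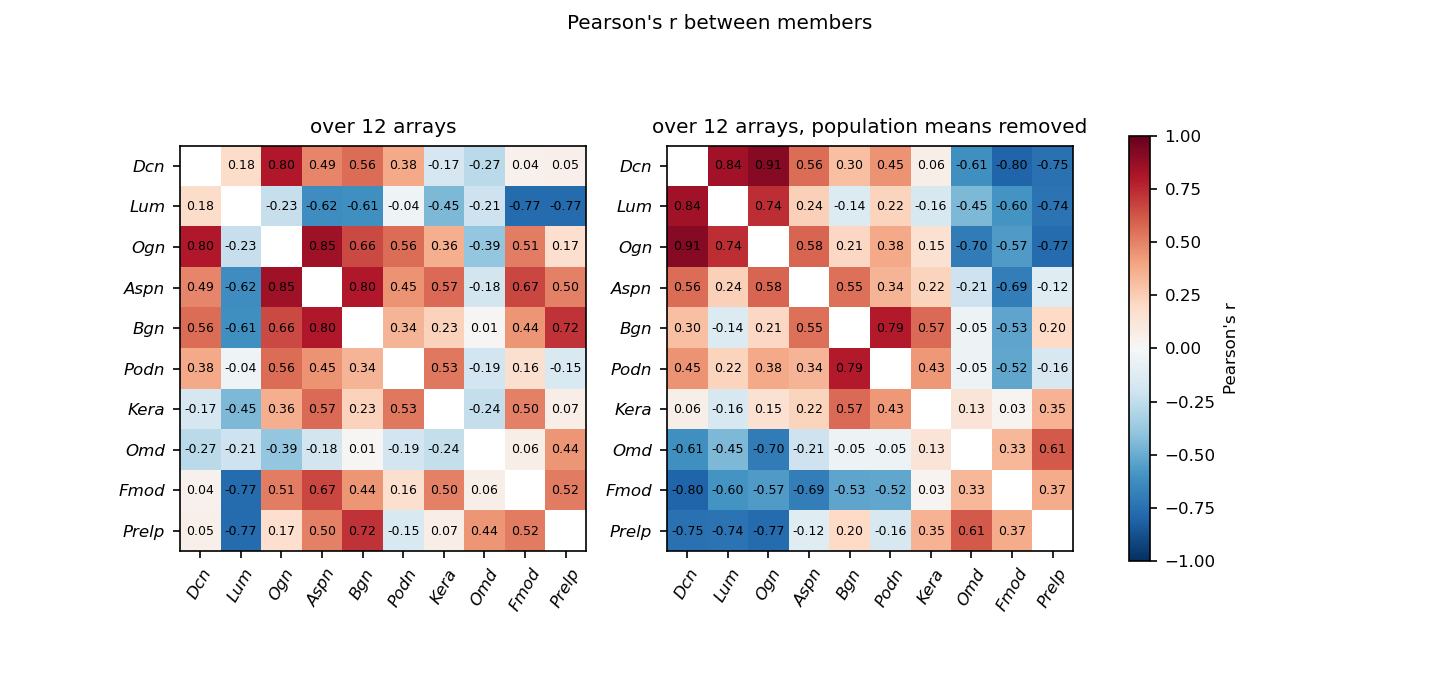
Pearson's r between each pair of the 10 genes (both axes) over the 12 arrays, on the left with the population means kept and on the right with them removed. Lum and Ogn go from -0.23 to 0.74, and Fmod and Ogn from 0.51 to -0.57.

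Of the 8957 named genes with a mean level of at least 6, those most like each member over the 12 arrays were listed by Pearson's r. Prelp was nearest to Mfap5, a microfibril-associated glycoprotein (r = 0.97), and to Vegfa (0.95) and Adgrd1 (0.94). Ogn was nearest to Lox, the lysyl oxidase that crosslinks collagen and elastin (0.96), and then to Aldh1l2 and Sema6c (0.95 each). Aspn was nearest to Itm2a (0.96), Agtr2 (0.93) and Ldb2 (0.92), and Bgn to Selenop (0.97), Dpep1 (0.95) and Fcgrt (0.94). For Dcn these genes were Cstad (0.95), Cpz (0.92) and Gpc3 (0.91), for Lum Zfp536 (0.94), Tmem47 (0.93) and Cep112 (0.93), and for Kera Lrrc42 (0.91), Ltbp1 (0.89) and Tbx3 (0.89). Fmod (Gstt1, 0.87), Omd (Impact, 0.93) and Podn (Tbca, 0.82) completed the list. The highest of so many coefficients is high by selection, and these are descriptions of 12 arrays.

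Genes that build, bind or answer to these proteoglycans were read from lists. A gene is counted as called in a list if called in any of the 6 comparisons, each of which called 0.0857% to 3.72% of all genes. Of 7 other measured family genes only Ecm2 was called, as given above, while Epyc, Optc, Chad, Podnl1, Nyx and Chadl were called in no comparison. Of 20 measured genes for chondroitin and dermatan sulfate synthesis, only Xylt1 was called. Xylt1 encodes a xylosyltransferase that starts the chain on the core protein. Its levels were 7.92, 7.69 and 7.70 in CD26+, 7.58, 7.84 and, in the array left out, 7.05 in Dlk1-Sca1+, 6.77, 7.08 and 7.003 in Dlk1+Sca1- and 6.89, 6.79 and 6.76 in Dlk1+Sca1+, so the order of its population means was that of Lum and the reverse of that of Aspn. The Xylt1 difference was 0.95 ± 0.16 for CD26+ against Dlk1+Sca1+ (adjusted p = 0.00342, limma), 0.82 ± 0.16 against Dlk1+Sca1- (0.0229) and 0.90 ± 0.17 for Dlk1-Sca1+ against Dlk1+Sca1+ (0.0247), the latter 2 lost with all 12 arrays. Of 9 genes for keratan sulfate synthesis, B4galt1, a galactosyltransferase, was the only one called. Its level was 8.94 ± 0.13 (SD, n = 3) in Dlk1+Sca1+ against 8.19 ± 0.16 in Dlk1+Sca1- (0.0291) and 8.33 ± 0.20 in CD26+ (0.0387), calls that stood in 6 and 3 of 11 fits without 1 array.

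Of 13 fibril-associated collagen genes, 2 were called. Col11a1, which encodes a chain of a collagen found inside thin fibrils, had levels of 8.46, 8.67 and 6.66 in Dlk1+Sca1- against 5.30 to 5.79 in CD26+ (-2.39 ± 0.42, adjusted p = 0.0184, limma) and 5.01 to 5.47 in Dlk1+Sca1+ (-2.68 ± 0.42, 0.00944). These calls stood in 7 and 9 of 11 fits without 1 array, and both were lost with only the compared populations fitted. In Dlk1-Sca1+ the Col11a1 levels were 6.81, 6.36 and, in the array left out, 7.90, and it was not called against Dlk1+Sca1-. Col14a1, whose product sits on the fibril surface, was lower in CD26+ than in Dlk1+Sca1+ (-1.15 ± 0.24, 0.0165), as it was in Dlk1-Sca1+ (-1.24 ± 0.27, 0.0434), though the latter was not called with all 12 arrays. Among 8 large proteoglycans and link proteins, Acan, the aggrecan of cartilage, followed Col11a1 with 7.88, 7.65 and 6.005 in Dlk1+Sca1- against 4.77 to 5.02 in CD26+ (-2.31 ± 0.37, 0.0115). Vcan, the versican of dermis, was lower in CD26+ than in Dlk1+Sca1+ (-0.58 ± 0.09, 0.00329).

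Of 16 TGF-beta and BMP genes, which make the growth factors that several members bind and the proteins that store them, 5 were called. Ltbp1, a latent TGF-beta binding protein, had the order of population means of Kera, with 8.99, 9.001 and 8.48 in Dlk1+Sca1- against 7.68 to 7.73 in CD26+ (-1.12 ± 0.16, adjusted p = 0.00434, limma) and 7.48 and 7.59 in the fitted Dlk1-Sca1+ arrays (-1.29 ± 0.18, 0.00604). Bmp7 was likewise highest in Dlk1+Sca1-, at 8.37 ± 0.57 (SD, n = 3) against 6.48 ± 0.46 in Dlk1+Sca1+ (0.00748). Ltbp2 was lower in CD26+ than in Dlk1+Sca1+ (-0.93 ± 0.16, 0.00611) and Bmp4 was higher (1.78 ± 0.34, 0.0117). The TGF-beta coreceptor gene Tgfbr3 was lower in CD26+ than in Dlk1+Sca1+ (-0.52 ± 0.13, 0.0414), a call that stood in 3 of 11 fits without 1 array.

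Of 15 receptors for soluble decorin, biglycan and lumican, 3 were called, each lower in CD26+ than in Dlk1+Sca1+. Egfr and Met, receptor tyrosine kinases bound by decorin, differed by -1.47 ± 0.31 (adjusted p = 0.0196, limma) and -1.79 ± 0.42 (0.0359). Each of these calls stood in 6 of 11 fits without 1 array and was lost without any of the Dlk1+Sca1+ arrays. The Met levels of CD26+ (4.275 to 5.656) lay around the array medians. Tlr2, bound by biglycan, differed by -0.81 ± 0.20 (0.043), which stood in 2 of 11 fits without 1 array. None of 13 genes for proteases that cut these proteoglycans was called in any comparison.

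Markers of other cell types moved with some populations and are given beside these results. The fibroblast list (5 of 5 genes measured, none of them a member) had a mean level of 11.18 to 11.28 over the Dlk1+Sca1- arrays and 11.46 to 11.69 over the other fitted arrays. The leukocyte list (11 of 12 measured) lay at 5.44 to 5.62 in Dlk1+Sca1+, where Aspn, Ogn, Bgn and Prelp were highest, against 4.70 to 4.95 in the other fitted arrays. Of its genes 3 were called higher there than in CD26+, among them Pf4 (6.24 to 6.57 against 3.58 to 4.09) and Mrc1 (6.004 to 6.42 against 4.75 to 4.94). The tendon and fascia list (8 of 8) lay at 6.10 to 6.71 and the cartilage list (6 of 6) at 5.65 to 5.85 in Dlk1+Sca1-, where Kera was highest, against 5.50 to 5.99 and 5.12 to 5.39 in the other fitted arrays. In the Dlk1-Sca1+ array left out the tendon list lay at 5.672 and the cartilage list at 5.635, close to the lowest Dlk1+Sca1- array (5.654). In the tendon list Thbs4 (-2.24 ± 0.38, adjusted p = 0.0147, limma) and Cilp (-2.43 ± 0.35, 0.00528) were called lower in CD26+ than in Dlk1+Sca1-. Scx and Comp were called in no comparison. In the cartilage list Acan alone was called. The median difference from Dlk1+Sca1- was -0.20 in CD26+, -0.06 in Dlk1+Sca1+ and -0.07 in Dlk1-Sca1+ for the tendon list. For the cartilage list it was -0.11, -0.13 and -0.22, so both list means rest largely on a few genes. In Dlk1+Sca1- replicates 1, 2 and 3 the tendon list level was 6.53, 6.71 and 6.10 and the Kera level 7.59, 7.38 and 7.55. The adipocyte list lay at 6.75 to 7.19 in the fitted arrays of both Sca1+ populations and at 4.91 to 6.36 in the others. The part of these cells in the members' differences was not tested, and in sorted bulk RNA fewer cells of a type and less RNA per cell cannot be told apart.

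**Figure D5:**
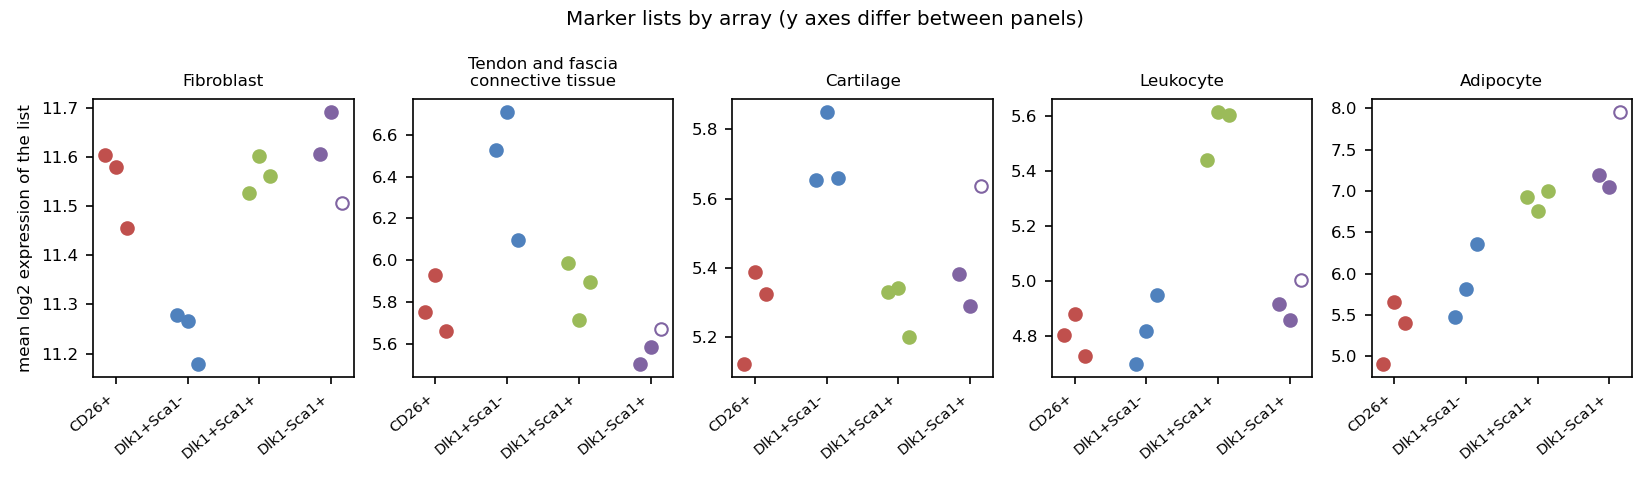
Mean log2 level of 5 marker lists (y axis, scaled per panel) in the 4 populations (x axis), with 1 point per array and the left-out Dlk1-Sca1+ array open. The leukocyte list is highest in the 3 Dlk1+Sca1+ arrays (5.44 to 5.62) and the tendon and fascia list in the 3 Dlk1+Sca1- arrays (6.10 to 6.71).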

How the data were processed

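The deposited values are log2 expression levels per probe set of 12 Affymetrix Mouse Gene 2.0 ST arrays, made by the authors with a summarisation and normalisation not given in the sources used here; the submitters' notes name mm10, the build called GRCm38 by RefSeq. No array signal against background was given. Of 41345 probe sets, 23521 carried 1 gene symbol in the platform annotation, 1820 several and 16004 none, and the brightest per gene left 22180 genes. Differences were fitted with limma 3.58.1 (R 4.3.3, statmod 1.5.0): 1 mean per population over 11 arrays, 7 residual degrees of freedom, eBayes with trend and robust fitting, two-sided, Benjamini-Hochberg adjustment over all genes within each of 6 comparisons, called at 0.05. The left-out Dlk1-Sca1+ array was the one with the highest Dlk1 of its population and a higher mean correlation with Dlk1+Sca1+ (0.06) than with its own population (-0.07); the study does not state its number. The fit was tested on simulated data. Members and lists were chosen with earlier results of these data known. All members were named, from each other list at most 3 called genes per comparison, and for each member its 3 most alike genes, passing over predicted genes and small RNAs. P-values measure the spread between these arrays, and the number of arrays limits the precision. Replicate numbers recur across populations. Same-numbered arrays deviated together weakly (median r 0.05, range -0.05 to 0.14, 2 of 15 pairs above 0.1). Arrays of unlike number did so less (median r -0.03, range -0.14 to 0.09, 0 of 30 pairs above 0.1). Deviations from a population mean sum to 0, so higher r for like numbers goes with lower r for unlike ones. The numbers were not used as pairs in the main fit, and a fit with the number as a block was run as an alternative. Alternatives were all 12 arrays, other scalings, a filter on dim genes, other fits, other probe sets and leaving out each array.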

Additional observations from a re-analysis of the deposited data

How the results depend on the processing

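No member difference larger than its SE changed sign under any setting. In many settings it could not, since a difference of population means is the same whatever the error model. This holds for the filter on dim genes, the fit without trend or robust fitting and the methods' t-test. It also holds where only the compared populations were fitted or an array of another population was left out. Of the 840 recomputed differences 770 kept their side of the threshold, 53 lost it and 17 gained it. For the other listed genes called, 890 kept it and 324 lost it. With all 12 arrays, genes called went from 243 to 137 (CD26+ against Dlk1+Sca1-), 263 to 88 (Dlk1-Sca1+ against Dlk1+Sca1+) and 19 to 29 (CD26+ against Dlk1-Sca1+), and members called from 2 to 1 in the first. With only the compared populations fitted, genes called were 109 in CD26+ against Dlk1+Sca1-, 118 between the Dlk1+ populations (274 before) and 26 in Dlk1-Sca1+ against Dlk1+Sca1- (131 before), with 0 members in the first and last. The methods' t-test, with the Benjamini-Hochberg adjustment over all genes added here, called 0 members in every comparison. It called 0 genes except for 5 in CD26+ against Dlk1+Sca1+ (826 by limma). Before adjustment it passed 1 to 5 members per comparison. Without trend or robust fitting, members called were 1 in CD26+ against Dlk1+Sca1- and 0 in Dlk1-Sca1+ against Dlk1+Sca1+. In the latter comparison it was 1 after median centring, 1 after quantile normalisation and 1 with the replicate block, while quantile normalisation gave 2 for Dlk1-Sca1+ against Dlk1+Sca1-. Members differing among the 4 populations went from 3 to 5 with the replicate block, which beside these 2 counts moved no other by over 1.5 times, to 6 with the mean of all probe sets and to 6 of 9 left without the 40% dimmest genes.

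Leaving out 1 array at a time, genes called ranged from 61 to 265 (CD26+ against Dlk1+Sca1-), 99 to 355 (Dlk1+ populations), 20 to 175 (Dlk1-Sca1+ against Dlk1+Sca1-), 426 to 967 (CD26+ against Dlk1+Sca1+), 8 to 25 (CD26+ against Dlk1-Sca1+) and 83 to 351 (Dlk1-Sca1+ against Dlk1+Sca1+). Members called ranged, in the same order, from 0 to 2, 0 to 1, 0 to 1, 2 to 5, 0 to 0 and 0 to 2, and members differing among the populations from 1 to 6. The cause of these changes was not tested. The 2 or 3 arrays per population limit the precision. Of 11 arrays, 8 deviated most alike with an array of their own replicate number. The count expected without pairing was not computed, so this does not show that arrays are paired. It comes from the data and not from the design. With the replicate block, Prelp (adjusted p = 0.00648, moderated F) and Lum (0.0386) were called beside Aspn, Kera and Ogn.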
